A study of Mus musculus with 60 samples.

Results

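TRAV6-1, TRAV6-5 and TRAV6-7-DV9 are 3 variable (V) segments of the TRAV6 family of the mouse T cell receptor alpha chain (TCRA). They were chosen on their usage in these same libraries, as segments of 1 family whose usage moved apart between tissues. Their usage by tissue and stage is therefore given as a description with no test. Among donor CD4+ T cells, 291 clonotypes of 62533 listed carried the label TRAV6-1, 1225 carried TRAV6-5 and 1673 carried TRAV6-7-DV9. Among donor CD8+ T cells the corresponding numbers were 714, 690 and 1132 of 59365. The 3 segments are 3 of 109 V labels in each table and 3 of 15 TRAV6 labels.

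T cells came from C57BL/6 donors of 3 genotypes, and STAT3, the gene compared, encodes a transcription factor that acts downstream of cytokine receptors. The genotypes were WT, STAT3ko (a floxed Stat3 gene deleted by CD4-Cre, which acts in both the CD4 and the CD8 lineage from the thymus on) and STAT3koPD-1ko (the same deletion in mice that also lack PD-1, an inhibitory receptor, in every cell). Spleen T cells were sampled before hematopoietic cell transplantation (HCT), with 1 library per genotype. Lethally irradiated BALB/c hosts, mismatched to the donor strain and WT for all groups, were given T cell-depleted bone marrow of WT C57BL/6 origin together with the CD90.2+ T cells, and on day 6 donor-type (H-2Kb+) TCRβ+ CD4+ or CD8+ cells were sorted from liver and gut, 2 libraries per genotype and tissue. Each day 6 library pooled 3 recipients, so a library stands for a pool and not for an animal. The spread given for a tissue is taken over the libraries of all 3 genotypes, so it holds genotype differences as well as those between pools. A spread over libraries of more than 1 tissue also holds tissue differences. The spread before HCT is over the 3 genotypes, with no replicate library. The study's supplement says that the sequenced samples came in 2 batches, and the sources used here do not tie a batch to a library. Usage differences are therefore also given within each replicate number. This gave 15 TCRA libraries of CD4+ and 15 of CD8+ cells. The animals' age was not given in the sources used here.

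A TCRA gene is made when a V segment is joined to 1 of many joining (TRAJ) segments, and the junction encodes CDR3, the complementarity-determining loop that lies over the bound peptide. The first joins on an allele use V segments near the TRAJ array and TRAJ segments at its 5′ end, and later joins on the same allele can replace them with more distal V and TRAJ segments. TRAJ numbers fall from the 5′ end to the 3′ end of the array, so a high number marks a TRAJ close to the V segments. TRAV6-7-DV9 carries a second name because it can also join in the delta chain.

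On mouse chromosome 14 (GRCm38, the mm10 build named in the labels, forward strand, GENCODE positions) the 3 segments lie far apart. TRAV6-1 spans 52638515 to 52638962 and starts 1516 kb from the start of TRAJ61, the 5′ end of the TRAJ array. TRAV6-5 spans 53491115 to 53491622, 664 kb from TRAJ61. TRAV6-7-DV9 spans 53709902 to 53710419, 445 kb from TRAJ61. The 3′ ends of the germline segments, 45 bases of each with the bases that enter the CDR3 in capitals, are shown because they set how well a CDR3 can be tied to its V segment:
TRAV6-1: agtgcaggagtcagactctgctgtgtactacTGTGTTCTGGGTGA
TRAV6-5: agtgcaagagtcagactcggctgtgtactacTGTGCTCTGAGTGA
TRAV6-7-DV9: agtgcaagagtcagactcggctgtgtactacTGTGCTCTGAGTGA
TRAV6-5 and TRAV6-7-DV9 were identical over their last 47 bases, and the 14 bases that enter the CDR3 were also those of 6 TRAV12 segments (TRAV12-1, TRAV12-3, TRAV12D-1, TRAV12D-3, TRAV12N-1 and TRAV12N-3). TRAV6-1 differed from TRAV6-5 at 4 of the 45 bases and shared its 14 CDR3 bases with TRAV6-2 and TRAV6D-5.

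The tables hold 1 entry per CDR3 amino acid sequence, with 1 V label for the entry, so an entry can pool alpha chains of different V segments. This limits every V usage value. Of 25521 CDR3s listed in both tables, 29.9% carried the same V label in both, while 99.9% carried the same TRAJ label. TRAV6-1 in the CD4 table kept its label in the CD8 table for 53.3% of 122 shared CDR3s, and TRAV6-2 took 26.2%. TRAV6-5 kept it for 7.44% of 659, and 56.1% were labelled with a TRAV12 segment. TRAV6-7-DV9 kept it for 27.5% of 861, and 50.9% were labelled with a TRAV12 segment. From the CD8 table, the label was kept for 26.4% of 246 TRAV6-1 CDR3s, 15.1% of 325 TRAV6-5 CDR3s and 41.9% of 565 TRAV6-7-DV9 CDR3s. The TRAJ label was kept for at least 99.8% of the CDR3s of each segment. The nucleotide CDR3 listed with an entry began with the first 10 germline CDR3 bases of the named segment in 87.3% of TRAV6-1, 70.8% of TRAV6-5 and 89.2% of TRAV6-7-DV9 entries of the CD4 table, and in 91.2%, 71.6% and 89.6% of those of the CD8 table.

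The values are fractions of reads per library and the depth is unknown, so no counting interval is given. The listed clonotypes held 92.5% to 99.1% of the reads of a CD4 library and 90.8% to 99.1% of those of a CD8 library, except in the 3 gut libraries of replicate 2 of each table, where they held 81.6% to 83.5% and 79.5% to 80.1%. Usage is the share of the listed reads of a library. More cells with a segment and more of its RNA per cell cannot be told apart in these sorted bulk samples. The joins that define invariant NKT cells (TRAV11 to TRAJ18) and MAIT cells (TRAV1 to TRAJ33), which such a gate could also hold, were at most 0.137% and 0.0620% of the listed reads of any library.

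TRAV6-1 was the least used of the 3 in every CD4 library and every day 6 CD8 library, though not in the WT CD8+ cells before HCT, and its mean was lower in gut than in liver in both cell types. In CD4+ cells it made up 0.300% (WT), 0.330% (STAT3ko) and 0.398% (STAT3koPD-1ko) of the reads before HCT. In liver its CD4 usage was 0.252% at the lowest, 0.300% at the median and 0.353% at the highest of 6 libraries. In gut it was 0.0204% at the lowest, 0.133% at the median and 0.233% at the highest. No gut library reached the lowest liver library. The mean fell from 0.304% ± 0.042 (SD, n = 6) in liver to 0.126% ± 0.070 (SD, n = 6) in gut.

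In CD8+ cells TRAV6-1 was 1.501%, 0.778% and 0.979% of the reads before HCT in WT, STAT3ko and STAT3koPD-1ko, respectively. All 12 day 6 libraries were below these 3, the highest by little (0.772% in a liver library against 0.778%). The day 6 minus before HCT difference was -0.91 on the log2(percent + 0.1) scale by reads, -0.12 with each clonotype counted once and -0.24 without the 10 most frequent clonotypes. Those 10 held 48.6% to 79.3% of the TRAV6-1 reads before HCT and 22.0% to 52.3% on day 6, so leaving them out takes unequal parts. By clonotypes the libraries overlapped, with up to 1.158% in liver against 0.965% to 1.070% before HCT. Liver libraries lay between 0.516% and 0.772% (0.637% ± 0.10, SD, n = 6) and gut libraries between 0.357% and 0.503% (0.416% ± 0.066, SD, n = 6). The 2 tissues did not overlap, and the highest gut library stood just below the lowest liver library.

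TRAV6-5 had a lower mean in gut than in liver among CD4+ cells, and the libraries of the tissues overlapped. Its CD4 usage was 2.48%, 2.06% and 2.02% before HCT in the 3 genotypes. It lay between 1.75% and 2.29% in liver (2.10% ± 0.20, SD, n = 6) and between 0.937% and 1.86% in gut (1.53% ± 0.34, SD, n = 6). In CD8+ cells the values were close to each other in every compartment, from 0.950% to 1.105% before HCT, from 0.786% to 1.18% in liver and from 0.848% to 1.18% in gut.

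The gut libraries of TRAV6-7-DV9 lay above those of liver among CD8+ cells and overlapped them among CD4+ cells. In CD8+ cells it was 0.904%, 2.37% and 1.45% of the reads before HCT, a spread wider than that of the other compartments. Liver libraries lay between 1.27% and 1.78% (1.59% ± 0.21, SD, n = 6) and gut libraries between 1.90% and 2.86% (2.23% ± 0.33, SD, n = 6), with no overlap. In CD4+ cells it was 1.98%, 2.92% and 2.32% before HCT, 2.19% ± 0.23 (SD, n = 6) in liver and 2.20% ± 0.27 (SD, n = 6) in gut. The CD4 liver and gut ranges lay on top of each other. The 2 tables were joined separately, so CD4 and CD8 values stand side by side with no test between them.

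**Figure D1:**
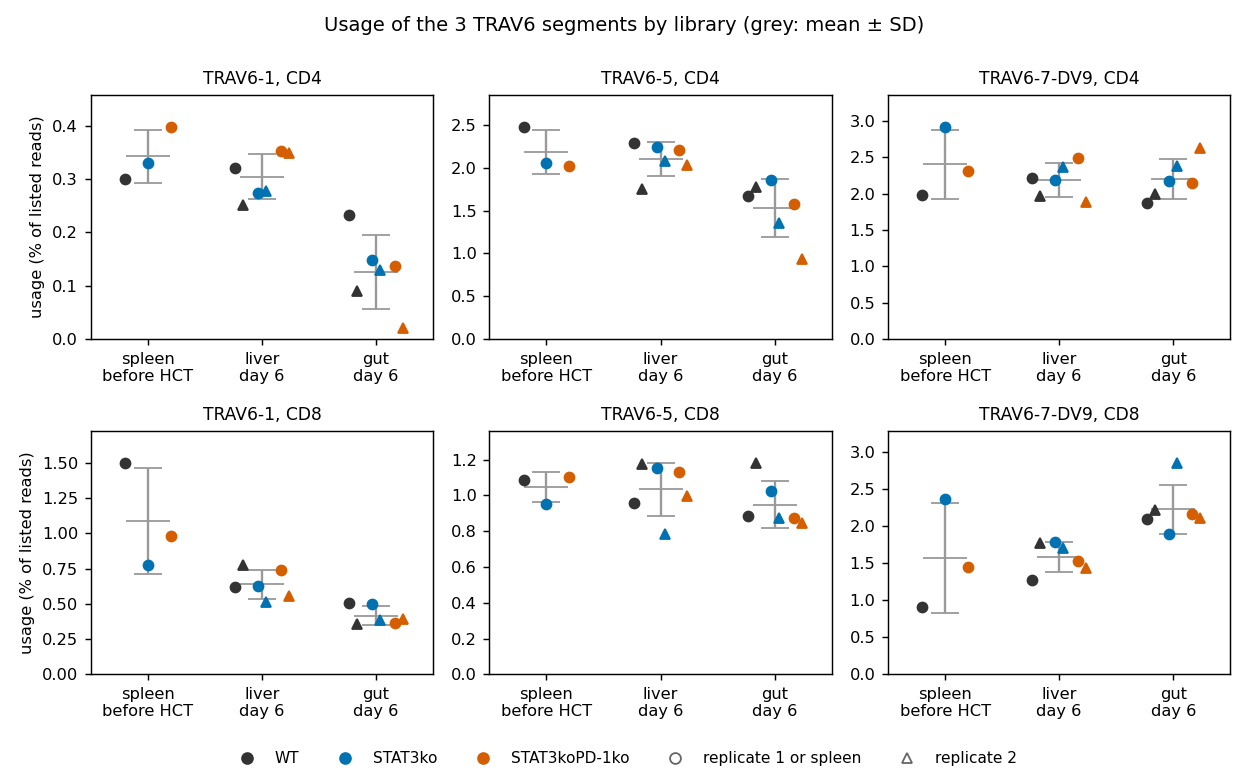
Usage of the 3 segments in every library, as percent of the listed reads on a linear axis from 0, by compartment. Points are libraries coloured by genotype, triangles are replicate 2, and grey bars are the mean and SD of a compartment. TRAV6-1 sits lower in gut than in liver in both rows of panels, with no gut library above 0.233% in CD4+ and 0.503% in CD8+ cells, while the TRAV6-7-DV9 gut libraries sit above those of liver in CD8+ cells and overlap them in CD4+ cells.

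Full separations of gut and liver were also counted over the V segments of each table. Of the 48 CD4 segments that averaged at least 0.5% of reads or were 1 of the 3 described, 6.25% were lower in gut without overlap, TRAV6-1 among them, and 0% were higher. Of 41 CD8 segments, 7.32% were lower, TRAV6-1 among them, and 4.88% were higher, TRAV6-7-DV9 among them. On day 6, 2.44% of the CD8 segments lay below all 3 spleen libraries, which was TRAV6-1 alone, and 0% of the CD4 segments did. The choice of the 3 segments used these separations, so nothing is read from the counts. Of the 12 other TRAV6 segments, 0 were lower in gut without overlap in either table, while 1 in CD4+ and 0 in CD8+ cells were higher. The other TRAV6 segments of highest mean usage were TRAV6-6 (2.69% ± 0.50 in CD4+ and 3.85% ± 0.35 in CD8+ cells, SD, n = 15), TRAV6N-7 (2.39% ± 0.38 and 1.69% ± 0.28) and TRAV6D-7 (1.120% ± 0.22 and 1.105% ± 0.18).

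Each tissue difference of TRAV6-1, of TRAV6-5 and, in CD8+ cells, of TRAV6-7-DV9 was smaller when each clonotype was counted once in place of its reads. On the log2(percent + 0.1) scale, the gut minus liver difference of TRAV6-1 was -0.90 in CD4+ and -0.51 in CD8+ cells by reads, and -0.39 and -0.21 by clonotypes. For TRAV6-5 in CD4+ cells the difference of -0.46 became -0.13. For TRAV6-7-DV9 in CD8+ cells the difference of 0.46 became 0.04. TRAV6-7-DV9 made up 2.01% ± 0.14 of the clonotypes of a CD8 liver library and 2.08% ± 0.13 of those of a CD8 gut library (SD, n = 6 each), whose ranges overlapped. Without the 3 gut libraries of replicate 2, which held less of their reads in listed clonotypes, the difference was -0.58 for TRAV6-1 in CD4+, -0.41 for TRAV6-1 in CD8+, -0.29 for TRAV6-5 in CD4+ and 0.36 for TRAV6-7-DV9 in CD8+ cells. Within replicate numbers 1 and 2, the difference was -0.62 and -1.17 for TRAV6-1 in CD4+, -0.46 and -0.56 for TRAV6-1 in CD8+, -0.38 and -0.54 for TRAV6-5 in CD4+ and 0.41 and 0.52 for TRAV6-7-DV9 in CD8+ cells, respectively. TRAV6-7-DV9 in CD4+ cells was at -0.15 and 0.16. Without the 10 most frequent clonotypes of the segment in each library, the differences were -0.39 for TRAV6-1 in CD4+ cells, -0.40 for TRAV6-1 in CD8+ cells, -0.41 for TRAV6-5 in CD4+ cells and 0.33 for TRAV6-7-DV9 in CD8+ cells. For TRAV6-1 in CD4+ cells this left means of 0.088% in liver and 0.048% in gut, below the 0.1% added, which narrows the difference. The STAT3koPD-1ko gut library of replicate 2 had 9 such clonotypes, so none was left.

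**Figure D2:**
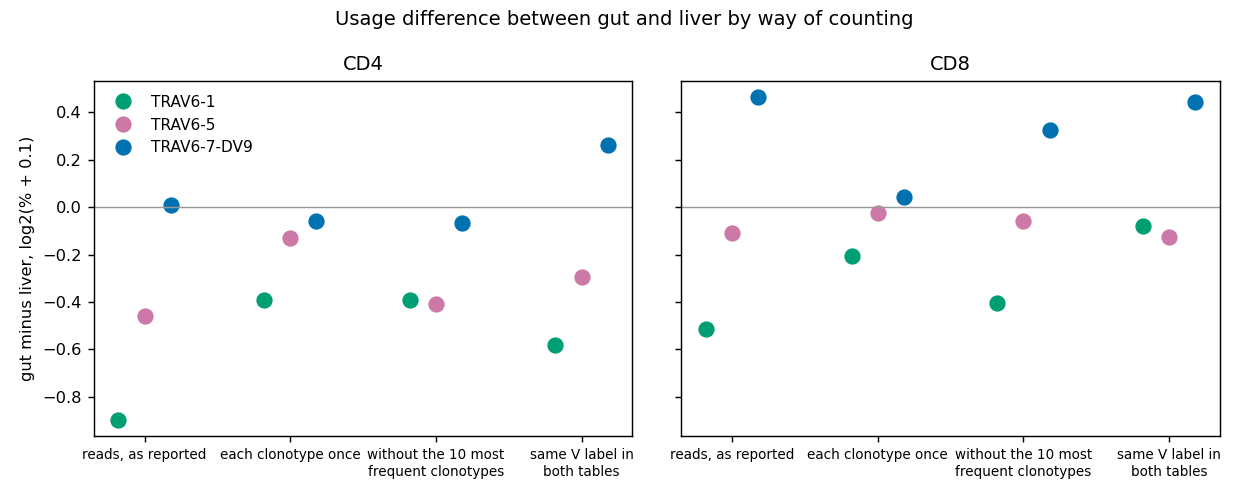
Gut minus liver difference in mean log2(percent + 0.1) for the 3 segments under 4 ways of counting, CD4+ cells left and CD8+ cells right. Each point is 1 difference between 6 gut and 6 liver libraries, and the line marks 0. The points lie closer to 0 when each clonotype is counted once, as for TRAV6-7-DV9 in CD8+ cells (0.46 and 0.04), except that of TRAV6-7-DV9 in CD4+ cells (0.01 and -0.06).

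The separation was also checked against the V label. Among clonotypes whose CDR3 had the same V label in both tables, the gut minus liver difference was -0.58 for TRAV6-1 in CD4+, -0.08 for TRAV6-1 in CD8+, -0.29 for TRAV6-5 in CD4+ and 0.44 for TRAV6-7-DV9 in CD8+ cells. For TRAV6-7-DV9 in CD4+ cells it moved from 0.01 over all its clonotypes to 0.26. The subsets held 65 TRAV6-1, 49 TRAV6-5 and 237 TRAV6-7-DV9 clonotypes. Their reads were divided by all listed reads, so their shares are smaller than those of the whole segment. The added 0.1% narrows a difference between small shares. CDR3s that began with the 4 residues encoded by the TRAV6-1 germline end, whatever their label, made up 0.819% ± 0.27 of liver and 0.455% ± 0.092 of gut CD4 reads, and 0.951% ± 0.095 of liver and 0.652% ± 0.13 of gut CD8 reads (SD, n = 6 each). The CD4 ranges did not overlap (lowest liver 0.641%, highest gut 0.558%), whereas the CD8 ranges did (0.826% and 0.845%). CDR3s that began with the 4 residues shared by TRAV6-5 and TRAV6-7-DV9 made up 6.14% ± 0.20 of liver and 5.61% ± 0.41 of gut CD4 reads, and 9.12% ± 0.56 of liver and 10.005% ± 0.31 of gut CD8 reads.

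In TRAJ pairing TRAV6-7-DV9 stood apart from TRAV6-1 and TRAV6-5. The TRAJ label barely differed between tables, but the mean TRAJ number of a V segment also depends on which clonotypes carry its V label. The mean TRAJ number of a segment weights each clonotype by its reads. In CD4+ cells of the 12 day 6 libraries it was 24.6 ± 2.4 for TRAV6-1, 27.6 ± 1.3 for TRAV6-5 and 41.2 ± 1.1 for TRAV6-7-DV9 (SD). In CD8+ cells it was 24.5 ± 1.5, 26.6 ± 1.6 and 41.1 ± 1.0. Across all 15 libraries TRAV6-7-DV9 lay between 38.3 and 42.8 in CD4+ and between 37.8 and 43.1 in CD8+ cells, and the other two never passed 29.5.

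Within each library the mean TRAJ number of TRAV6-7-DV9 was higher than that of all other V segments together, by 11.6 ± 1.1 (SD) in CD4+ and 12.6 ± 1.4 in CD8+ cells, in 12 of 12 libraries of each (exact two-sided sign-flip test, p = 0.000488, the smallest that 12 libraries allow; adjusted over all V segments tested, p = 0.000808 and 0.000667). TRAV6-1 was lower than the rest, with differences of -5.29 ± 2.5 and -4.13 ± 1.5, in 12 of 12 libraries of each table (the same exact test gave adjusted p = 0.000808 and 0.000667). TRAV6-5 was lower by less, with differences of -2.30 ± 1.6 and -2.06 ± 1.4, in 11 of 12 libraries of each (exact sign-flip test, adjusted p = 0.00138 and 0.00182). The TRAV6-5 call was lost over the 6 gut libraries of each table (exact sign-flip test, adjusted p = 0.0769 and 0.107) and over the 6 means of replicates in CD8+ cells (exact sign-flip test, adjusted p = 0.0657), where 6 values allow no p below 0.03125. The sign-flip test takes the 12 libraries as independent, and whether liver and gut libraries of a replicate number shared recipients was not given in the sources used here. A call on TRAJ number was common: 35.4% of CD4 and 36.6% of CD8 segments were higher than the rest and 52.1% and 58.5% were lower, so the direction alone does not set the 3 segments apart. By size, TRAV6-7-DV9 ranked 6 of 48 and 5 of 41 from the highest difference.

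The 3 segments also differed from each other in these 6 comparisons within libraries. TRAV6-5 minus TRAV6-7-DV9 was -13.6 ± 1.3 in CD4+ and -14.4 ± 2.0 in CD8+ cells, and TRAV6-1 minus TRAV6-7-DV9 was -16.6 ± 2.5 and -16.5 ± 2.0 (SD, exact sign-flip test, p = 0.000488 for all 4). TRAV6-1 minus TRAV6-5 was smaller, -3.01 ± 2.8 in CD4+ and -2.07 ± 1.9 in CD8+ cells (exact sign-flip test, p = 0.00391 and 0.00537), with the opposite sign in 2 of 12 libraries of each table. Among clonotypes with 1 V label in both tables, the TRAV6-1 minus TRAV6-5 difference was -1.0006 in CD4+ (exact sign-flip test, p = 0.569) and -2.55 in CD8+ cells (exact sign-flip test, p = 0.0688), whereas TRAV6-7-DV9 stood 15.8 and 16.3 above all other segments. In that subset TRAV6-5 was at -4.17 in CD4+ and -3.33 in CD8+ cells and TRAV6-1 at -5.17 and -5.88 against all other segments.

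The share of reads on TRAJ40 or a higher number, a mark set after the values were seen, shows the same data. It was 58.0% ± 5.3 for TRAV6-7-DV9 in CD4+ and 63.0% ± 5.1 in CD8+ cells. It was 15.7% ± 3.9 and 17.7% ± 3.6 for TRAV6-5, and 6.29% ± 4.8 and 6.90% ± 2.5 for TRAV6-1. All other V segments together had 25.0% ± 2.7 and 23.2% ± 1.5 (SD, n = 12). The lowest TRAV6-7-DV9 library, at 48.9% in CD4+ and 51.6% in CD8+ cells, stood above the highest TRAV6-5 library, at 21.3% and 26.6%.

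**Figure D3:**
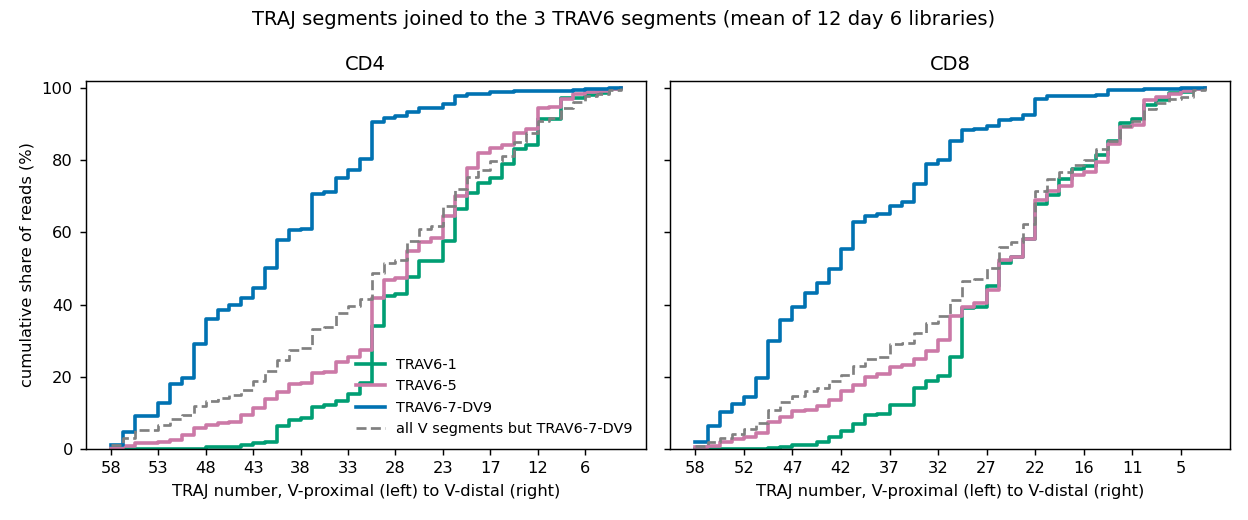
Cumulative share of reads (percent) over TRAJ segments ordered from V-proximal, high numbers at the left, to V-distal, as the mean of 12 day 6 libraries. Solid lines are the 3 segments and the dashed line is all V segments except TRAV6-7-DV9. The TRAV6-7-DV9 line has passed 58.0% of CD4 and 63.0% of CD8 reads by TRAJ40, and the TRAV6-1 line 6.29% and 6.90%.

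The single TRAJ segments of largest share were as follows. TRAV6-7-DV9 joined TRAJ31 in 10.3% ± 5.0 of its CD4 reads (7.26% among other segments), TRAJ37 in 9.49% ± 4.4 (5.29%) and TRAJ49 in 9.46% ± 2.5 (2.44%), and TRAJ49 was above the other segments in 12 of 12 libraries. In CD8+ cells its leading TRAJ segments were TRAJ49 at 10.2% ± 5.0 (3.54%), TRAJ40 at 7.64% ± 4.8 (2.51%) and TRAJ48 at 5.88% ± 3.1 (2.28%). TRAV6-5 was led in CD4+ cells by TRAJ31 at 14.5% ± 4.9 (7.20%), TRAJ21 at 7.92% ± 4.9 (3.21%) and TRAJ27 at 7.53% ± 3.1 (5.28%). In CD8+ cells TRAV6-5 was led by TRAJ22 at 10.8% ± 3.8 (8.91%), TRAJ26 at 8.34% ± 3.1 (5.94%) and TRAJ9 at 6.997% ± 2.7 (3.36%). TRAV6-1 was led in CD8+ cells by TRAJ30 at 13.5% ± 5.3 (5.33%), TRAJ22 at 9.71% ± 5.1 (8.93%) and TRAJ26 at 6.50% ± 4.0 (5.96%). In CD4+ cells the TRAV6-1 shares rested on few clonotypes, with TRAJ31 at 15.9% ± 17, TRAJ22 at 9.08% ± 9.1 and TRAJ30 at 8.25% ± 11 (SD, n = 12).

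Set along the locus, the TRAJ number of a V segment rose towards the TRAJ array. Across 47 CD4 segments the Pearson r between the distance to TRAJ61 and the mean TRAJ number was -0.71 and Spearman's rho was -0.77, and across 41 CD8 segments they were -0.67 and -0.75. These are descriptions across segments that share their libraries. Without the described segments r was -0.71 in CD4+ and -0.67 in CD8+ cells. The 9 CD4 segments within 500 kb of TRAJ61 had means of 35.3 to 50.03 and the 7 CD8 segments 28.1 to 48.3, with TRAV6-7-DV9 inside both ranges. Segments over 800 kb away had means of 20.6 to 31.2 in CD4+ (23 segments) and 21.5 to 31.6 in CD8+ cells (20 segments), the range in which TRAV6-1 lay. The mean TRAJ number of TRAV6-7-DV9 lay above those of the 12 other TRAV6 segments, which averaged 21.9 to 34.1 in CD4+ and 23.7 to 29.3 in CD8+ cells.

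**Figure D4:**
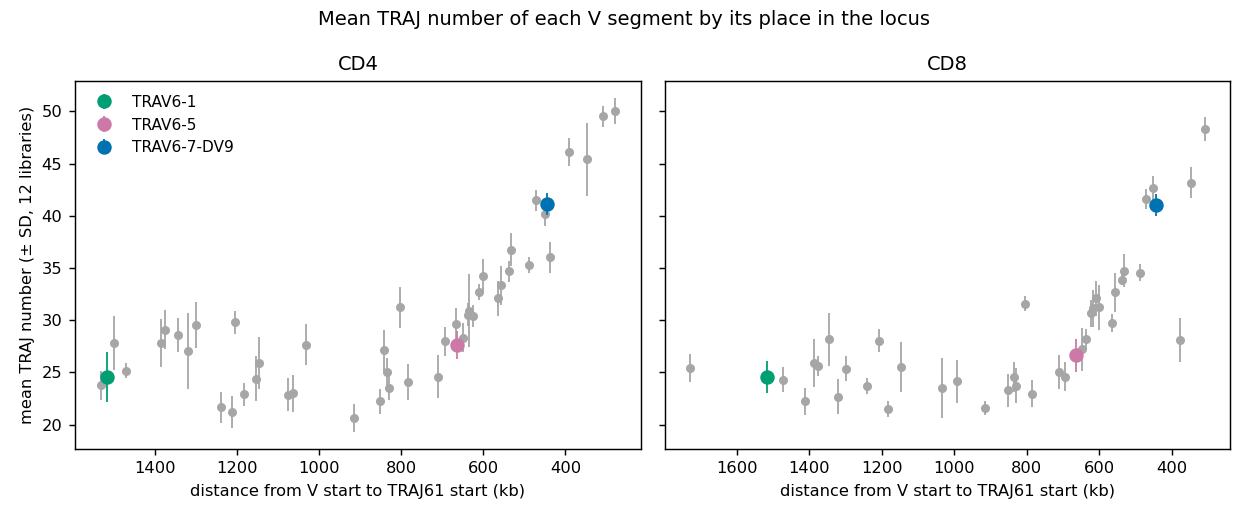
Mean TRAJ number of each V segment (mean and SD of 12 day 6 libraries) against the distance in kb from its start to the start of TRAJ61, with the TRAJ array towards the right. Grey points are the other V segments of at least 0.5% mean usage. TRAV6-7-DV9, 445 kb away, sits at 41.2 in CD4+ and 41.1 in CD8+ cells among segments of like distance, and TRAV6-5 and TRAV6-1 sit at 27.6 and lower.

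CDR3 length was compared in the same way. Chains labelled TRAV6-7-DV9 had a mean CDR3 length of 14.0 ± 0.16 residues against 13.4 ± 0.032 in all other CD4 chains, a difference of 0.583 ± 0.15 in 12 of 12 libraries (exact sign-flip test, adjusted p = 0.00102). In CD8+ cells the means were 13.9 ± 0.091 and 13.6 ± 0.062, a difference of 0.263 ± 0.091 in 12 of 12 libraries (exact sign-flip test, adjusted p = 0.000801). TRAV6-5 was shorter than the rest in CD4+ cells by a difference of -0.174 ± 0.15 (exact sign-flip test, adjusted p = 0.00907), and in CD8+ cells the difference was -0.0468 ± 0.12 (exact sign-flip test, adjusted p = 0.239). TRAV6-1 differed by 0.154 ± 0.30 in CD4+ and -0.100 ± 0.20 in CD8+ cells (exact sign-flip test, adjusted p = 0.131 and 0.124). Of all segments tested, 31.2% of CD4 and 9.76% of CD8 segments were longer than the rest and 39.6% and 65.9% were shorter. By size, TRAV6-7-DV9 ranked 5 of 48 and 2 of 41 from the highest length difference. Counted once per clonotype, TRAV6-5 in CD8+ cells was longer than the rest by 0.134 (exact sign-flip test, adjusted p = 0.000589). With the same V label in both tables, its difference was -0.619 in CD8+ cells (exact sign-flip test, adjusted p = 0.00276). In CD4+ cells it was -0.379 and the call was lost (exact sign-flip test, adjusted p = 0.330).

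The effective number of clonotypes of the 3 segments differed between compartments, and so did its median over all V segments. The effective number, from the Shannon entropy, gives how many equally frequent clonotypes would be as diverse. TRAV6-7-DV9 had an effective number of 99.4 ± 3.4 before HCT in CD4+ and 62.2 ± 7.8 in CD8+ cells (SD, n = 3). In liver it was 201 ± 41 and 128 ± 22, and in gut 215 ± 130 and 124 ± 53 (SD, n = 6). The CD4 gut values split by replicate number, with 268 to 356 in replicate 1 and 68.7 to 173 in replicate 2, whereas the CD8 gut values overlapped (118 to 217 and 68.3 to 136). TRAV6-5 split the same way in gut CD4+ cells, with 231 to 264 against 47.9 to 173, and TRAV6-1 with 26.5 to 47.9 against 6.89 to 26.3. The median effective number over all 47 CD4 segments past the usage filter was 44.9 to 70.0 before HCT, 76.4 to 133 in liver, 135 to 203 in gut replicate 1 and 51.7 to 105 in gut replicate 2. Over 41 CD8 segments it was 25.2 to 45.4, 50.8 to 96.2, 109 to 118 and 58.3 to 66.6. The number of listed clonotypes, in the same compartments, was 8843 to 14747, 13377 to 22620, 20345 to 27874 and 6748 to 13102 per CD4 library and 8501 to 10482, 11502 to 16983, 22270 to 23961 and 10581 to 13746 per CD8 library. The listed share of reads was lower in the gut replicate 2 libraries. The part of these in the values of the 3 segments was not tested.

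The most frequent TRAV6-7-DV9 clonotype of a CD8 gut library held 0.246% ± 0.11 of all listed reads (SD, n = 6), against 0.0795% ± 0.023 in liver and 0.154% ± 0.067 before HCT (n = 3). The 6 gut libraries ranged from 0.0939% to 0.365% and the 6 liver libraries from 0.0565% to 0.116%. The clonotype in front was a different one in each of the 6 gut libraries. In the 6 CD8 liver libraries there were 5 different ones, and TRAV6-1 and TRAV6-5 each had 4 in the 6 CD8 gut libraries. In CD4+ cells the leading TRAV6-7-DV9 clonotype held 0.208% ± 0.090 before HCT, 0.0953% ± 0.029 in liver and 0.128% ± 0.080 in gut, where the libraries (0.0666% to 0.263%) overlapped those of liver (up to 0.125%). TRAV6-1 had a leading CD8 clonotype of 0.141% ± 0.098 before HCT, 0.0569% ± 0.020 in liver and 0.0313% ± 0.013 in gut, and a leading CD4 clonotype of 0.112% ± 0.069, 0.0848% ± 0.044 and 0.0231% ± 0.017. For TRAV6-5 it was 0.192% ± 0.053, 0.101% ± 0.030 and 0.0565% ± 0.015 in CD4+ cells and 0.121% ± 0.070, 0.0755% ± 0.045 and 0.0575% ± 0.012 in CD8+ cells. The median leading clonotype over all V segments was 0.102% to 0.201% before HCT, 0.0711% to 0.116% in liver and 0.0730% to 0.154% in gut of CD8+ cells, and 0.134% to 0.188%, 0.0926% to 0.118% and 0.0670% to 0.147% in CD4+ cells. Its mean over CD8 libraries was 0.0925% in liver and 0.112% in gut, whereas the TRAV6-1 and TRAV6-5 means were lower in gut. Over CD4 libraries it was 0.107% and 0.102%. CD8 clonotypes labelled TRAV6-1 that each held over 0.01% of the reads numbered 20 to 24 before HCT, 10 to 19 in liver and 4 to 8 in gut. This count depends on TRAV6-1 usage, on which the segment was chosen, and was not made over all V segments. Nothing is read from it.

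**Figure D5:**
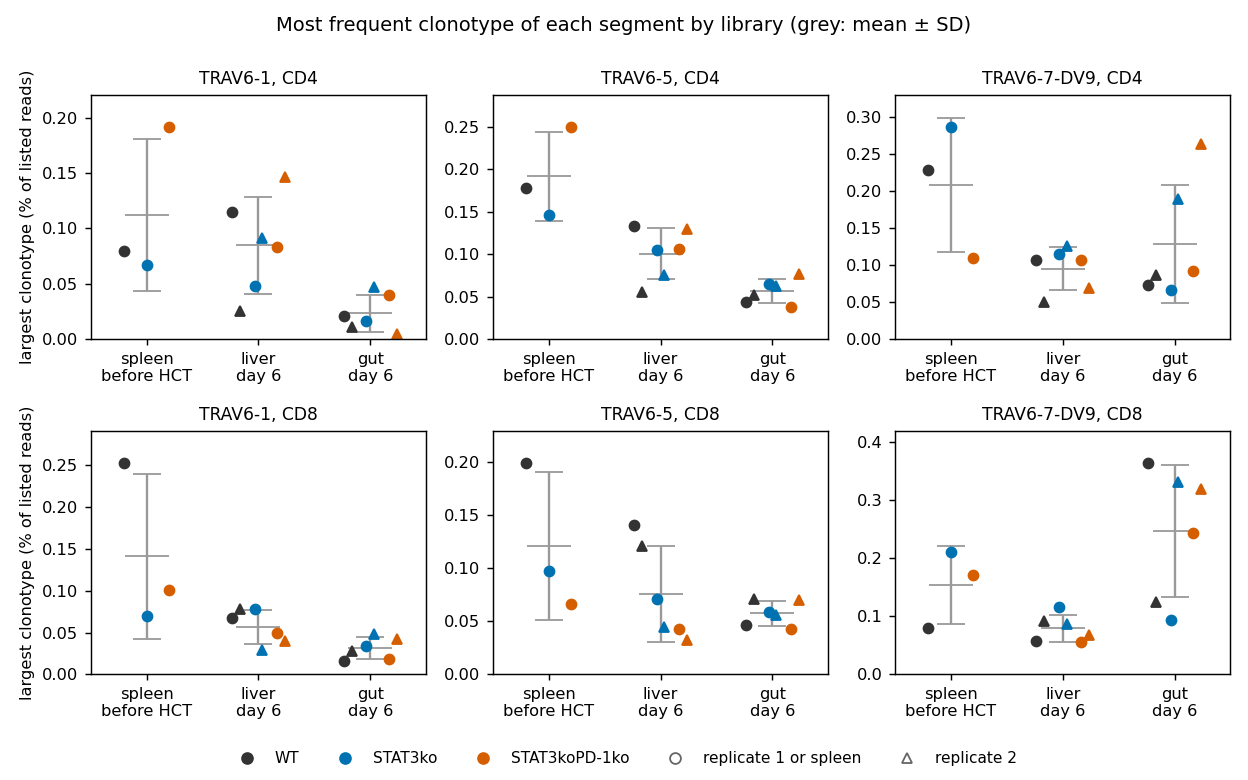
Most frequent clonotype of each segment in every library, as percent of the listed reads on a linear axis from 0, by compartment. Colours are genotypes, triangles are replicate 2 and grey bars are the mean and SD. In CD8+ cells the TRAV6-7-DV9 gut libraries reach 0.365%, while no TRAV6-1 gut library passes 0.0482%.

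The clonotypes of highest mean frequency on day 6 are printed because they show how the 3 segments join, in CD4+ cells on the same TRAJ. Each is the nucleotide CDR3 listed in the deposited table, with lower case for the unbroken match to the named V segment from the start and to the TRAJ segment from the end, and capitals for the bases between these matches:
TRAV6-1 to TRAJ31, CD4+: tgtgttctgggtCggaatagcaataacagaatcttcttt
TRAV6-5 to TRAJ31, CD4+: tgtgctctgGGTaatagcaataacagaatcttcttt
TRAV6-7-DV9 to TRAJ31, CD4+: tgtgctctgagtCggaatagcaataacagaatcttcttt
TRAV6-1 to TRAJ30, CD8+: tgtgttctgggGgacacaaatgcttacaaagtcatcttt
TRAV6-5 to TRAJ9, CD8+: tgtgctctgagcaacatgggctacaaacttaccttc
TRAV6-7-DV9 to TRAJ22, CD8+: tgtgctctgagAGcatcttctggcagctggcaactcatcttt
In CD4+ cells the leading clonotypes of all 3 segments used TRAJ31, and those of TRAV6-1 and TRAV6-7-DV9 carried the same bases from the capital to the end. At most 3 bases in each of the 6 sequences lay between the V and TRAJ matches.

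These clonotypes were found in most libraries. The TRAV6-7-DV9 to TRAJ31 clonotype was in 15 of 15 CD4 libraries, at 0.00513% to 0.0226% before HCT, 0.0264% to 0.0518% in liver and 0.0313% to 0.263% in gut. These clonotypes were picked for their day 6 frequency, so nothing is read from a comparison with the spleen. The TRAV6-5 to TRAJ31 clonotype was also in all 15, with 0.0215% to 0.0441% in gut. The TRAV6-1 to TRAJ31 clonotype was in 13, and its mean of 0.0178% ± 0.041 (SD, n = 12) included 1 liver library at 0.147%. In CD8+ cells the TRAV6-7-DV9 to TRAJ22 and TRAV6-5 to TRAJ9 clonotypes were each in 15 of 15 libraries, at 0.0564% ± 0.024 and 0.0343% ± 0.017 on day 6 and 0.0485% ± 0.060 and 0.0894% ± 0.088 before HCT. The TRAV6-1 to TRAJ30 clonotype was in 14, at 0.0259% ± 0.022 on day 6 and 0.0366% ± 0.036 before HCT (SD, n = 12 and 3). The TRAV6-1 clonotype found in most CD8 libraries was another one, joined to TRAJ18 and present in 15 of 15 at 0.00698% ± 0.0054:
TRAV6-1 to TRAJ18, CD8+: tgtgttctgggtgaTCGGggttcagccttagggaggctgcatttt
TRAJ18 is the segment of the invariant NKT chain, which joins it to TRAV11 and not to TRAV6-1. Many clonotypes were found in few libraries: 57.4% and 56.7% of the TRAV6-1 clonotypes of the CD4 and CD8 tables, and 43.3% to 45.8% of those of TRAV6-5 and TRAV6-7-DV9, were in at most 2 of the 15 libraries, against 49.1% of all CD4 and 48.5% of all CD8 clonotypes.

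No difference between genotypes was called for any of the 3 segments. Usage was fitted on day 6 over all V segments of at least 0.5% mean usage with limma, with tissue in the model, on log2(percent + 0.1). TRAV6-1 in CD4+ cells did not reach 0.5%, so 5 of the 6 combinations of segment and cell type were tested. The 15 log2 differences lay between -0.19 and 0.17, with standard errors of 0.13 to 0.17 and 95% intervals within -0.56 and 0.45, and the lowest limma adjusted p was 0.783. For STAT3ko minus WT, TRAV6-7-DV9 was at 0.17 in CD4+ and 0.15 in CD8+ cells, and TRAV6-5 at -0.00 and -0.12. For STAT3koPD-1ko minus WT, TRAV6-5 was at -0.19 and -0.11 and TRAV6-7-DV9 at 0.17 and -0.02. Over all V segments, limma called 0% for 5 of the 6 contrasts and 2.44% for STAT3koPD-1ko minus STAT3ko in CD8+ cells, which was none of the 3. At an unadjusted limma p under 0.05 there were 0, 2 and 2 CD4 segments and 5, 4 and 3 CD8 segments for STAT3ko minus WT, STAT3koPD-1ko minus STAT3ko and STAT3koPD-1ko minus WT. In a fit over all V labels, TRAV6-1 in CD4+ cells was at -0.06, -0.12 and -0.18 for these contrasts, each with a standard error of 0.26.

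The effective number of clonotypes was compared in the same way. The 15 log2 differences lay between -0.88 and 0.38 with standard errors of 0.36 to 0.51, and the lowest limma adjusted p was 0.288. The lowest value, -0.88 (95% interval -1.91 to 0.15), was that of TRAV6-5 in CD4+ cells for STAT3koPD-1ko minus WT, where TRAV6-7-DV9 was at -0.67. The median over all CD4 segments was also lower in STAT3koPD-1ko than in WT. In liver replicates 1 and 2 it was 76.4 against 122 and 78.8 against 133. In gut replicates 1 and 2 it was 135 against 203 and 57.4 against 105. Limma called 0% of all V segments for each of the 6 contrasts. At an unadjusted limma p under 0.05 there were 5 CD4 segments for STAT3koPD-1ko minus WT, 2 CD8 segments for STAT3koPD-1ko minus STAT3ko and 0 for the other 4 contrasts. TRAV6-1 in CD4+ cells, in the fit over all V labels, was at -1.34 for STAT3koPD-1ko minus WT (95% interval -2.59 to -0.09, limma unadjusted p = 0.0365, adjusted p = 0.379). In the test of whether a genotype difference itself differed between gut and liver, the value of TRAV6-5 usage in CD4+ cells for STAT3koPD-1ko minus WT was -0.54 with a standard error of 0.34 (limma adjusted p = 0.779).

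The V segments whose usage moved most like that of the 3 were found by Pearson's r of log2(percent + 0.1) over the 15 libraries of a table, as a description. TRAV6-1 in CD4+ cells was most like TRAV5-1 (r = 0.87), TRAV6-5 (0.86) and TRAV16N (0.84). TRAV6-5 in CD4+ cells was most like TRAV16N (0.90), TRAV8D-1 (0.89) and TRAV9-2 (0.77). TRAV6-1 in CD8+ cells was most like TRAV9-2 (0.85), TRAV12D-2 (0.55) and TRAV3-4 (0.54), and TRAV6-7-DV9 in CD8+ cells was most like TRAV14D-2 (0.82), TRAV6N-7 (0.78) and TRAV3-3 (0.65). The values of TRAV6-7-DV9 in CD4+ cells and TRAV6-5 in CD8+ cells did not pass 0.49 with any segment. The segments share their libraries, and usages within a library sum to a fixed total.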

How the data were processed

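TCRA CDR3 libraries (Takara SMARTer mouse TCR a/b kit, MiSeq) were processed by the authors with MiXCR and joined over libraries by CDR3 amino acid sequence with VDJtools. The deposited tables give, per clonotype and library, the fraction of reads, and list clonotypes found in at least 2 of 18 libraries joined, of which 15 are columns here. Depth is not recoverable from a fraction. The number of libraries of a clonotype (occurrences) and positions in the CDR3 are other columns. Library columns were mapped to samples by name, and 0 were left unmapped. The TCRB tables were not used.

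Usage was the sum over a V label divided by the listed total. Genotypes were compared with limma 3.58.1 (R 4.3.3) on log2(percent + 0.1) or log2 effective number, segments of at least 0.5% mean usage, with tissue as covariate and Benjamini-Hochberg adjustment over all segments of a table and contrast. TRAJ number and CDR3 length were compared within the 12 day 6 libraries by exact two-sided sign-flip tests (4096 flips), adjusted over all V segments tested rather than over the 3 alone. Both were tested on simulated data. The segments and lists were chosen with earlier results of these data known. Named were the 3 segments, the 3 TRAV6 segments of highest usage among the rest, the 3 TRAJ segments of largest share, the 3 V segments most alike, and the clonotypes of highest mean frequency and of most libraries. Germline sequences and positions came from GENCODE vM21 (GRCm38). Alternatives were other pseudocounts, filters, totals, one count per clonotype, CDR3s from C to F or W, a replicate block, left-out libraries and, chosen after seeing the data, clonotypes with the same V label in both tables and the data without gut replicate 2.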

Additional observations from a re-analysis of the deposited data

Results flagged for a closer look

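In 3 of 48 sets of 6 libraries (3 segments, 2 cell types, 2 tissues and 4 measures), 1 library stood apart from the other 5 by more than Dixon's 95% critical value of 0.625, where chance alone gives about 1 in 20. Usage of TRAV6-7-DV9 among CD8+ gut libraries was highest in STAT3ko replicate 2, at 2.86% against 1.90% to 2.23% in the others. Its mean TRAJ number among CD8+ liver libraries was lowest in STAT3koPD-1ko replicate 2, at 38.7 against 40.4 to 41.3. The mean CDR3 length of TRAV6-1 among CD8+ liver libraries was lowest in STAT3koPD-1ko replicate 1, at 13.1 residues against 13.5 to 13.8.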

How the results depend on the processing

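Depth is unknown, so what counting error allows could not be set. Usage differences by tissue and stage, on the log2(percent + 0.1) scale, moved with the way clonotypes were counted and with the V label. With each clonotype once, gut minus liver was -0.39 (TRAV6-1, CD4), -0.13 (TRAV6-5, CD4), -0.21 (TRAV6-1, CD8) and 0.045 (TRAV6-7-DV9, CD8), and day 6 minus before HCT was -0.12 (TRAV6-1, CD8). As reported, day 6 minus before HCT was -0.58 (TRAV6-1, CD4), -0.12 (TRAV6-7-DV9, CD4), -0.91 (TRAV6-1, CD8) and -0.08 (TRAV6-5, CD8). Without the 10 most frequent clonotypes, gut minus liver was -0.39 (TRAV6-1, CD4), and day 6 minus before HCT was 0.056 (TRAV6-1, CD4), 0.15 (TRAV6-7-DV9, CD4), -0.24 (TRAV6-1, CD8) and 0.37 (TRAV6-5, CD8), of which all but -0.24 turned the sign. With the same V label in both tables, gut minus liver was 0.26 (TRAV6-7-DV9, CD4) and -0.077 (TRAV6-1, CD8), and day 6 minus before HCT was 0.16 (TRAV6-7-DV9, CD4) and 0.10 (TRAV6-5, CD8), both with the sign turned. The added 0.1% narrows a difference between small shares, as for TRAV6-1 in CD4+ cells without its 10 most frequent clonotypes. The causes were not tested.

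TRAJ differences of TRAV6-1 and TRAV6-7-DV9 from all other segments kept their direction and call under every alternative run. With each clonotype once, TRAV6-5 was at -1.93 in CD4+ and -0.71 in CD8+ cells, both still called (exact sign-flip test, adjusted p = 0.000572 and 0.00843). TRAV6-1 minus TRAV6-5 was then -4.63 and -4.77. TRAV6-5 was at -2.07 in CD4+ and -1.44 in CD8+ cells over the 6 gut libraries and at -2.06 in CD8+ cells over 6 means of replicates (exact sign-flip test, adjusted p = 0.0769, 0.107 and 0.0657), where 6 values allow no p below 0.03125. TRAV6-1 minus TRAV6-5 was -2.84 in liver and -3.18 in gut of CD4+ cells and -1.45 in liver of CD8+ cells (exact sign-flip test, p = 0.0625, 0.0938 and 0.188), and -1.0006 and -2.55 with the same V label. For CDR3 length, TRAV6-5 in CD8+ cells turned to 0.134 with each clonotype once and was -0.619 with the same V label, called in opposite directions (exact sign-flip test, adjusted p = 0.000589 and 0.00276). The same V label gave -0.379 in CD4+ cells with the call lost. TRAV6-1 in CD8+ cells was called at -0.0976 with each clonotype once and at -0.132 over all 15 libraries. Leaving out 1 library gave 0.120 to 0.215 for TRAV6-1 in CD4+ cells (called without WT liver replicate 1) and -0.126 to -0.0550 in CD8+ cells (called without STAT3ko gut replicate 1).

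Between genotypes, the V segments called for usage in CD8+ cells numbered 1 for STAT3ko minus WT with all segments, and 0 for STAT3koPD-1ko minus STAT3ko with all segments, each clonotype once, a pseudocount of 0.5 or the share of all reads. Leaving out 1 library gave 0 to 1 for these contrasts and for STAT3koPD-1ko minus WT in CD4+ cells. The 0 became 1 without WT liver replicate 1 and STAT3koPD-1ko gut replicate 2, respectively, and the 1 became 0 without STAT3ko gut or liver replicate 1, STAT3koPD-1ko gut replicate 2 or liver replicate 1, or WT gut replicate 2. For the effective number it gave 0 to 1 for STAT3koPD-1ko minus WT in CD4+ cells (1 without STAT3koPD-1ko gut replicate 1) and 0 to 2 for STAT3koPD-1ko minus STAT3ko in CD8+ cells (1 without STAT3ko gut replicate 1, 2 without STAT3koPD-1ko gut replicate 2). The study names 2 batches, which the sources used here do not tie to replicate numbers. For each genotype and tissue, the usage difference between replicates 1 and 2 was taken for every V segment past the usage filter. Over segments, these differences correlated between groups at over 0.1 in 11 of 15 CD4 and 12 of 15 CD8 pairs of groups. Between the gut groups the correlations were 0.353, 0.396 and 0.568 (CD4) and 0.273, 0.293 and 0.609 (CD8). The numbers were not taken to pair all samples. With the replicate number as a block, 0 of the 30 values of the 3 segments were called (lowest limma adjusted p = 0.232).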
